A study of Mus musculus with 6 samples.

Results

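The 10 genes described here are the cytochrome P450 family 4 hydroxylases of mouse liver: Cyp4a10, Cyp4a12a, Cyp4a12b, Cyp4a14, Cyp4a31, Cyp4a32, Cyp4f13, Cyp4f14, Cyp4f15 and Cyp4v3. They were chosen by symbol among the 35970 gene symbols of the expression table, and the TPM of their transcripts (a share of the library corrected for transcript length) were summed per symbol. The other 14 family 4 symbols in the table were kept as a separate list. All 10 had a mean TPM of at least 1 over the libraries and entered the comparison with the other genes tested, 10598 in all.

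Family 4 enzymes are haem proteins of the endoplasmic reticulum that place a hydroxyl group at or near the far (omega) end of fatty acids. This step opens the omega-oxidation of fatty acids to dicarboxylic acids, and it also acts on lipid mediators: Cyp4a enzymes turn arachidonic acid into 20-hydroxyeicosatetraenoic acid, and Cyp4f enzymes inactivate leukotriene B4. In mouse liver several Cyp4a genes are induced through the nuclear receptor PPARα, and Cyp4a12a is known for higher expression in males.

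The libraries came from hepatocytes regrowing in injured liver. All 6 mice were Fah-/-;dCas9+, that is, without the last enzyme of tyrosine breakdown and able to make dCas9, a Cas9 unable to cut that a guide RNA directs to a gene to repress it (CRISPRi). Each mouse was kept on 7.5 µg/mL nitisinone, which prevents the injury, until 10 µg of a transposon plasmid and the virus AAV8.TBG.PI.Cre.rBG were injected into the tail vein under pressure. TBG is a hepatocyte promoter, here driving Cre. The plasmid, pkt2-fah-GFPL10a-CRISPRi-Nontargeting in 3 mice and pkt2-fah-GFPL10a-CRISPRi-Neurl1b in 3 mice, restored Fah and carried a GFP-tagged ribosomal protein L10a with the guide. Nitisinone was then withdrawn, and livers were taken 4 weeks later. Tagged ribosomes from 400 mg of liver were pulled down to obtain the RNA of cells that took up the plasmid, and the liver's remaining uncorrected cells carry no tag. RNA of other cell types was also present, as its markers given at the end show. Sex and age were not given in the labels used here. Neurl1b, an E3 ubiquitin ligase acting on Notch ligands, had 1.22, 0.897 and 0.688 TPM with the non-targeting guide against 0.295, 0.351 and 0.307 TPM with its own guide, so the groups did not overlap (33.9% of the non-targeting mean; exact two-sided permutation p = 0.1, the smallest that 3 against 3 allows).

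The genes lie in clusters of similar sequence, which matters for how reads can be told apart. In GENCODE vM21 (GRCm38) the Cyp4a genes lie together on chromosome 4, from Cyp4a12a at 115299046 to the end of Cyp4a32 at 115621602. Cyp4f15 (32685627 to 32703352), Cyp4f14 (32905070 to 32917342) and Cyp4f13 (32924688 to 32947402) lie on chromosome 17, and Cyp4v3 lies on chromosome 8. The coding stretch around the haem-binding cysteine is shown for all 10 because it marks them as P450 enzymes and shows which of them share sequence; the codon for that cysteine is in capitals, 5′ to 3′, from the GENCODE vM21 transcripts.
Cyp4a10: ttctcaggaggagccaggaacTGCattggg
Cyp4a31: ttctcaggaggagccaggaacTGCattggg
Cyp4a32: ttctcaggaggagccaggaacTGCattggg
Cyp4a12a: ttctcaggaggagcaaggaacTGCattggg
Cyp4a12b: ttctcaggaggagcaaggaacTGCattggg
Cyp4a14: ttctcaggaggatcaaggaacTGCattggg
Cyp4f13: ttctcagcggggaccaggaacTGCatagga
Cyp4f14: ttctcggcgggacccaggaacTGCatagga
Cyp4f15: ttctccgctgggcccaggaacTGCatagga
Cyp4v3: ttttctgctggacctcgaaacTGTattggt
Cyp4a10, Cyp4a31 and Cyp4a32 were identical over these 30 bases, as were Cyp4a12a and Cyp4a12b. The 3 Cyp4f genes differed from each other at 3 bases in each pair, and Cyp4v3 differed from every other member at 9 to 11 bases. Over the whole coding part Cyp4a12a and Cyp4a12b were 98.5% identical, Cyp4a10 and Cyp4a32 97.2%, and Cyp4f14 and Cyp4f15 80.0%.

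Reads that fit more than one gene are divided by estimation, so the share of 31-base stretches that also occur in another gene was counted, for each member in the transcript with the longest coding part (in Cyp4f13 and Cyp4f15 not the most abundant one). It was 62.2% for Cyp4a12a and 62.9% for Cyp4a12b, in both cases shared with the other of the pair. For Cyp4a32 it was 65.3%, for Cyp4a10 45.5% and for Cyp4a31 33.0%. Little was shared in Cyp4a14 (2.1%), Cyp4f13 (9.8%), Cyp4f14 (8.9%), Cyp4f15 (7.9%) and Cyp4v3 (7.5%). Cyp4a12a with Cyp4a12b, and Cyp4a10 with Cyp4a31 and Cyp4a32, are therefore given below as sums too.

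The levels spanned more than a factor of 10 between genes. In the non-targeting mice the highest were Cyp4a14 at 174 ± 51.3 TPM and Cyp4a10 at 161 ± 61.3 TPM (SD, n = 3), which did not differ beyond their spread. Cyp4v3 followed at 56.4 ± 9.78 TPM. The next 3 were all Cyp4f genes, Cyp4f14 at 36.0 ± 12.04, Cyp4f13 at 33.7 ± 7.44 and Cyp4f15 at 28.1 ± 3.17 TPM, and their ranges overlapped. Cyp4a12b (19.7 ± 16.4 TPM), Cyp4a12a (16.9 ± 10.8 TPM) and Cyp4a31 (12.2 ± 1.05 TPM) overlapped as well, and Cyp4a32 was lowest at 4.50 ± 1.43 TPM. In the CRISPRi mice Cyp4f14 stood elsewhere in this order: its mean lay below Cyp4a31 (11.7 ± 2.64 TPM) and just above Cyp4a32 (9.39 ± 5.63 TPM).

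**Figure D1:**
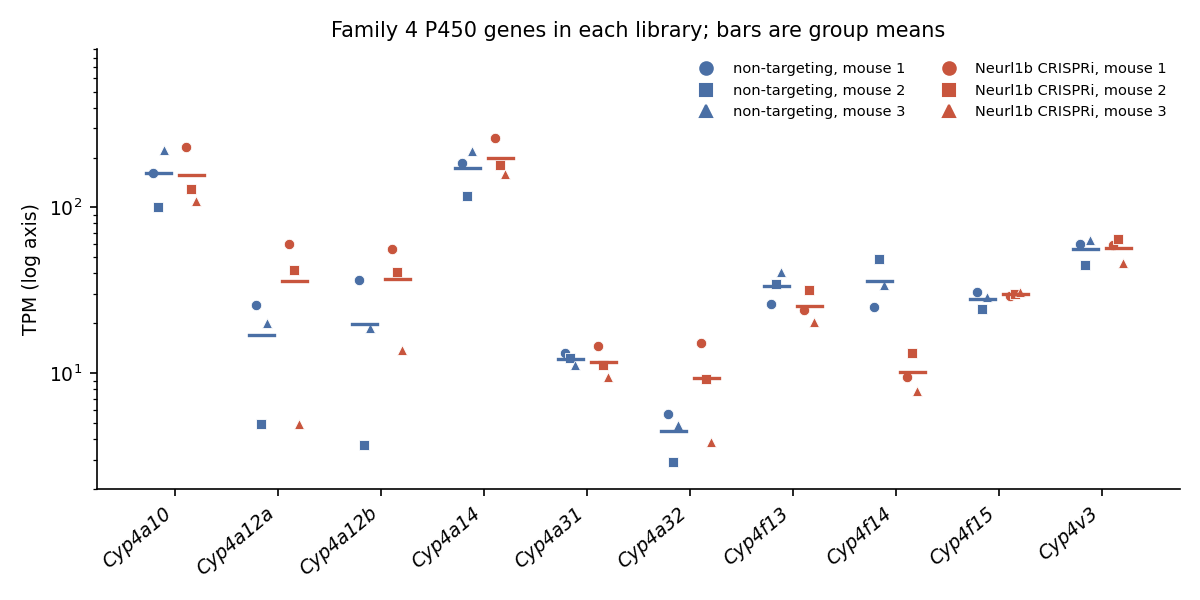
TPM (log axis) of each of the 10 genes in the 3 non-targeting (blue) and 3 Neurl1b CRISPRi (red) libraries; symbols mark the mouse number within a group and bars the group means. For Cyp4f14 all red points (7.78 to 13.2 TPM) lie below all blue points (24.9 to 48.8 TPM), while for the other 9 genes the groups overlap.

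Cyp4f14 was the member whose level differed most between the groups. This enzyme hydroxylates leukotriene B4 and other lipids. It measured 24.9, 48.8 and 34.2 TPM for non-targeting mice 1 to 3 and 9.48, 13.2 and 7.78 TPM in CRISPRi mice 1 to 3. The highest CRISPRi library was below the lowest non-targeting library. The means, 36.0 ± 12.04 and 10.1 ± 2.74 TPM (SD, n = 3 each), were 3.55-fold apart. In limma's fit across all genes on log2(TPM + 1) the log2 fold change was -1.71 (SE 0.28, 95% interval -2.34 to -1.08), with an unadjusted p of 0.000215 that was the 7th smallest among genes with lower values.

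After adjustment over all genes Cyp4f14 did not pass the threshold of 0.05 (limma, adjusted p = 0.216), and no other member did. In this comparison 2 of 10598 genes passed, 0.0189%, both higher in CRISPRi mice. Cyp4f14 was the 1 member of 10 with an unadjusted p below 0.05 and a lower value, which 3.19% of all genes tested had, and the 1 member without overlap between the groups, which 4.57% of all genes had in the lower and 12.5% in the higher direction. The exact permutation test gave p = 0.1, its smallest possible value here. Leaving out 1 library changed the adjusted p. Without non-targeting mouse 1 the log2 fold change of Cyp4f14 was -1.94 with an adjusted p of 0.0173 (limma). Its unadjusted p, 0.000278 (limma), was not smaller than with all 6 libraries. Then 25.3% of all genes (2673 of 10558) passed, 2436 higher and 237 lower. When median-of-ratios scaling was added, 473 passed, 184 higher and 289 lower, Cyp4f14 among them. Over all alternative settings its log2 fold change ranged from -2.27 to -1.41 and its adjusted p from 0.0173 to 0.564.

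TPM are shares of a library, so Cyp4f14 was also set against its chromosome 17 neighbours, which cancels any scaling of the library. The ratio of Cyp4f14 to Cyp4f15 was 0.812, 1.99 and 1.18 in non-targeting mice against 0.324, 0.435 and 0.253 in CRISPRi mice. Against the sum of Cyp4f13 and Cyp4f15 it was 0.440, 0.830 and 0.490, and 0.178, 0.212 and 0.152. In both ratios every CRISPRi library was below every non-targeting library. In bulk RNA of this kind, fewer cells of a type that holds the transcript and less of it per cell cannot be told apart.

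Most of the Cyp4f14 signal belonged to transcripts with a short first exon. The table listed 6, of which 4 have the same 1572-base coding part and differ in the bases before the start codon. In 2 of them, ENSMUST00000235058 and ENSMUST00000234759, a short upstream first exon is spliced to the exon with the start codon, leaving 27 and 31 bases before it. These 2 were chosen as a class after their values were seen, and were at 17.8, 43.5 and 32.1 TPM in non-targeting mice against 6.90, 10.0 and 5.29 TPM in CRISPRi mice. The groups did not overlap and the means were 4.21-fold apart. The other 2 full-length transcripts, ENSMUST00000179434 with a longer first exon from about the same start (202 bases before the start codon) and ENSMUST00000054174 with a start nearer to the coding part (215 bases), summed to 6.65, 5.12 and 2.10 TPM and to 2.58, 3.14 and 2.49 TPM, and here the groups overlapped. The ratio of the first class to the second was 2.68, 8.50 and 15.3 in non-targeting mice against 2.67, 3.18 and 2.12 in CRISPRi mice, which also overlapped, so a difference between the classes was not established. Tested alone among 19860 transcripts, ENSMUST00000235058 had a log2 fold change of -1.89 (SE 0.35, limma adjusted p = 0.50), and no transcript of any gene passed.

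The sequence before the start sites is shown for the 3 Cyp4f genes because only Cyp4f14 among these neighbours had groups without overlap. RefSeq's promoter windows matched 5 of the 10 members, and none matched Cyp4a10, Cyp4a12a, Cyp4a12b, Cyp4a14 or Cyp4a31. Cyp4f14 had 4 start sites. Below is the window before the most upstream of them, and beside it a shorter stretch of Cyp4f13 and Cyp4f15 that ends 51 bases before their start sites (GRCm38.p6, 5′ to 3′ on the gene's strand). Capitals mark ATTGG, the CCAAT box read on the other strand.
Cyp4f14, chr17:32917357-32917606, minus strand: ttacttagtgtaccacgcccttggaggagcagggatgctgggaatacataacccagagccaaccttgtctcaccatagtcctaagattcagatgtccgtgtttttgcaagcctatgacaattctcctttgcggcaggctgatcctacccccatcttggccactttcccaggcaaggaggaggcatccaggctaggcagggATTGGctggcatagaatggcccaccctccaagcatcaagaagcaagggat
Cyp4f13, chr17:32947412-32947611, minus strand: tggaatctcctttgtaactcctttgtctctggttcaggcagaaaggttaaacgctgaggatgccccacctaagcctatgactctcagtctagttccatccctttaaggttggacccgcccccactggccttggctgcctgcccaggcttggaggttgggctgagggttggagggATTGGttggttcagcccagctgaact
Cyp4f15, chr17:32685409-32685608, plus strand: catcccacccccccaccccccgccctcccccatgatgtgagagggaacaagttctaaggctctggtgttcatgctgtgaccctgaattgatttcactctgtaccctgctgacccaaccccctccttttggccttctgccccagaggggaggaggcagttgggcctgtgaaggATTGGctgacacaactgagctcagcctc
The match begins 76 bases before the start site in Cyp4f13, 78 in Cyp4f15, and 50, 64 and 77 before the upstream start sites of Cyp4f14. CCAAT or ATTGG occurred in 33.8% of the 32851 windows of all genes. Among the members it was in 7 of 8 windows, also in that of Cyp4a32 and not in that of Cyp4v3. The 8 windows belong to 5 members, and 4 of them to Cyp4f14. The Cyp4f14 windows with the match at 50, 64 and 77 bases overlap and hold the same match. So 7 of 8 is not a count of separate sequences. The spaced motif TTCNNNGAA, searched as the STAT5 site (its own reverse complement), was found in the window of Cyp4f13 among the members, in the part nearest the start site that is not printed. It was found in 7.02% of all windows. The first motif was thus present before all 3 Cyp4f genes and the second before Cyp4f13, not Cyp4f14. Also searched were the PPAR direct repeat and the HNF4 core, found in 0 of the 8 member windows (0.0335% and 0.384% of all windows). Cyp4a10 and Cyp4a14, inducible through PPARα, had no window and were not searched. The TATA box was found before Cyp4a32 alone of the members with a window (12.4% of all windows).

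Cyp4f13 and Cyp4f15, the other leukotriene and fatty acid hydroxylases of the cluster, had no comparable difference. Cyp4f15 was the steadiest of the 10, at 30.7, 24.5 and 28.9 TPM and at 29.3, 30.2 and 30.8 TPM. Its log2 fold change was 0.10 (SE 0.16, 95% interval -0.26 to 0.47, limma adjusted p = 0.733). The interval leaves out a difference as large as that of Cyp4f14.

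Cyp4f13 was at 26.0, 34.3 and 40.8 TPM in non-targeting mice against 24.02, 31.8 and 20.3 TPM in CRISPRi mice, and the groups overlapped. The log2 fold change was -0.39 (SE 0.23, 95% interval -0.92 to 0.13, limma adjusted p = 0.439). Its 14 listed transcripts did not vary together. The protein-coding ones summed to 18.4, 17.0 and 19.5 TPM and to 21.2, 20.3 and 16.9 TPM, close to level. The retained-intron ones, almost all from the 424-base ENSMUST00000235098, were at 7.57, 17.3 and 21.3 TPM and at 2.83, 11.1 and 3.28 TPM. The lower mean of the gene's sum in CRISPRi mice therefore came from transcripts without an annotated coding part, and these too overlapped between the groups.

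**Figure D2:**
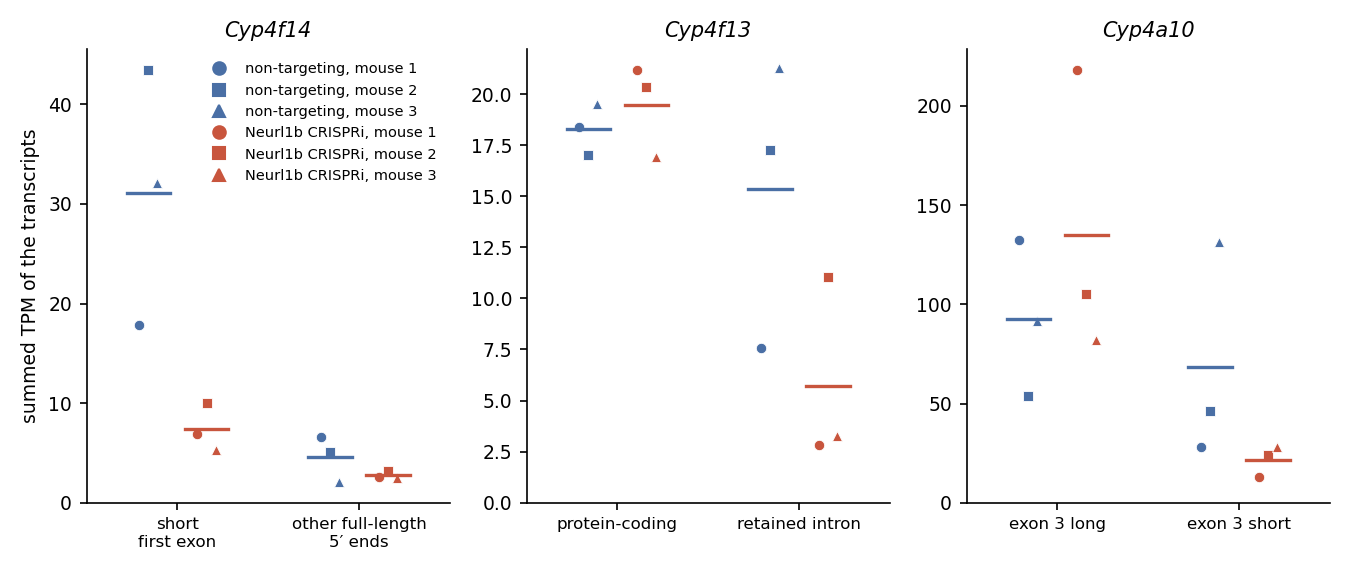
Summed TPM of transcript classes in the 3 non-targeting (blue) and 3 Neurl1b CRISPRi (red) libraries for Cyp4f14 (by 5′ end of the transcript), Cyp4f13 (protein-coding or retained intron) and Cyp4a10 (long or short exon 3); bars are group means. Only the short-first-exon class of Cyp4f14 has groups without overlap, 17.8 to 43.5 against 5.29 to 10.0 TPM.

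Cyp4v3, the mouse counterpart of the human gene CYP4V2 that is mutated in Bietti crystalline dystrophy, was at 60.4, 45.2 and 63.5 TPM and at 59.0, 64.5 and 46.4 TPM. Either group had 1 low library, mouse 2 among the non-targeting and mouse 3 among the CRISPRi mice. The log2 fold change was 0.0090 (SE 0.20, 95% interval -0.44 to 0.46, limma adjusted p = 0.983).

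Cyp4a10 and Cyp4a14, the PPARα-inducible fatty acid hydroxylases, were the most abundant members and showed no difference between the groups beyond the spread between mice. Cyp4a10 was at 160, 100.3 and 223 TPM and at 231, 130 and 110 TPM (log2 fold change -0.040, SE 0.35, 95% interval -0.83 to 0.75, limma adjusted p = 0.959). Cyp4a14 was at 186, 117 and 218 TPM and at 261, 180 and 159 TPM (log2 fold change 0.22, SE 0.27, 95% interval -0.40 to 0.84, limma adjusted p = 0.679). The ratio of Cyp4a14 to Cyp4a10 lay between 0.976 and 1.45 in the 6 libraries, so both varied together from mouse to mouse. The sum of Cyp4a10, Cyp4a31 and Cyp4a32 had a log2 fold change of -0.012 (SE 0.33, limma adjusted p = 0.987).

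The 2 transcripts of Cyp4a10 took different shares of the gene from mouse to mouse, with overlap between the groups. The 2 listed transcripts, of 2109 and 2052 bases, differ in and outside the coding part, so their shares need not follow exon 3 alone. In the coding part the longer form keeps 30 more bases at exon 3, shown in capitals in the sequence of that exon (ENSMUST00000058785, GENCODE vM21).
Cyp4a10 exon 3: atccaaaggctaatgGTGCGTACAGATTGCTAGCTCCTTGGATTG
The short form made up 17.4%, 46.2% and 58.9% of the gene's TPM in non-targeting mice against 5.59%, 18.7% and 25.4% in CRISPRi mice. Its level was 27.9, 46.3 and 131 TPM and 12.9, 24.3 and 27.9 TPM. Non-targeting mouse 1 lay within the range of the CRISPRi shares, and the short form did not pass the threshold among transcripts (log2 fold change -1.38, limma adjusted p = 0.50). The long form was at 132, 53.9 and 91.6 TPM and at 218, 105 and 81.9 TPM. These classes were picked after their values had been seen.

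Cyp4a12a and Cyp4a12b make the main 20-hydroxyeicosatetraenoic acid-forming enzymes of mouse and varied more between mice than any other member. Cyp4a12a was at 25.7, 4.94 and 20.2 TPM in non-targeting mice against 60.3, 42.0 and 4.96 TPM in CRISPRi mice, a 12.2-fold span. Cyp4a12b was at 36.5, 3.71 and 18.8 TPM and at 56.4, 40.9 and 13.9 TPM. In both genes non-targeting mouse 2 and CRISPRi mouse 3 were the lowest libraries and CRISPRi mouse 1 the highest, so the groups overlapped. The log2 fold change was 0.74 (SE 0.87, 95% interval -1.25 to 2.73, limma adjusted p = 0.659) for Cyp4a12a and 1.12 (SE 0.75, 95% interval -0.59 to 2.83, adjusted p = 0.471) for Cyp4a12b. For their sum it was 1.00 (SE 0.80, adjusted p = 0.531). Intervals this wide hold both no difference and a several-fold one.

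Because Cyp4a12a is known as a gene of the male liver, genes of sex-dependent regulation are given beside it. Cux2, a repressor known to be higher in female liver, was at 1.82, 4.10 and 0.243 TPM in non-targeting mice against 1.71, 1.68 and 5.44 TPM in CRISPRi mice (chosen after its values were seen). It was highest in the same 2 libraries in which Cyp4a12a was lowest; the relation was not tested. Ddx3y and Eif2s3y, on the Y chromosome, were at 11.3 to 19.1 and 19.3 to 35.7 TPM, so all 6 libraries held RNA of male mice. Of 15 tested genes of sex-dependent growth hormone signalling, 6 had a log2 fold change below 0 and 9 above, with a median of 0.06, and none passed. Of all genes tested 26.0% were below 0. Without non-targeting mouse 1, 1 passed in each direction, where 2436 of all 10558 genes passed higher and 237 lower. Of the 15, those with the smallest p were Onecut1 (-0.70), Igf1 (-0.65), the growth hormone receptor Ghr (-0.55) and the kinase Jak2 (0.30). Igf1 was at 720, 899 and 887 TPM and at 547, 697 and 385 TPM (limma adjusted p = 0.344). Of the 15, 3 had no overlap in the lower direction (Onecut1, Igf1 and Ghr) and 1 in the higher (Jak2). Among all genes tested these shares were 4.57% and 12.5%.

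Cyp4a31 and Cyp4a32, less studied hydroxylases of the same cluster, were low. Cyp4a31 was at 13.2, 12.3 and 11.1 TPM and at 14.6, 11.2 and 9.44 TPM (log2 fold change -0.070, SE 0.20, 95% interval -0.52 to 0.38, limma adjusted p = 0.86). Cyp4a32 was at 5.70, 2.91 and 4.87 TPM and at 15.1, 9.21 and 3.85 TPM (log2 fold change 0.79, SE 0.41, 95% interval -0.16 to 1.74, adjusted p = 0.408). CRISPRi mouse 3 lay within the non-targeting range of Cyp4a32, and CRISPRi mice 1 and 2 lay above it.

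Across the Cyp4a genes the libraries kept much the same order in TPM. CRISPRi mouse 1 was the highest of the 6 libraries in all 6 genes, and non-targeting mouse 2 was the lowest in 5 of them. The exception was Cyp4a31, lowest in CRISPRi mouse 3. These ranks depend on the scaling. The median-of-ratios size factors were 1.12, 0.848 and 0.838 in non-targeting mice against 1.09, 1.09 and 1.05 in CRISPRi mice. Divided by them, non-targeting mouse 3 lay above CRISPRi mouse 1 in Cyp4a10 and Cyp4a14, and non-targeting mouse 2 was highest in Cyp4a31. CRISPRi mouse 3, not non-targeting mouse 2, was then lowest in Cyp4a10 and Cyp4a12a. The common order thus held for fewer genes than in TPM. The summed TPM of the 6 genes was 428, 241 and 495 in non-targeting mice against 639, 413 and 301 in CRISPRi mice, with overlap. The 3 Cyp4f genes summed to 81.6, 108 and 104 TPM and to 62.8, 75.2 and 58.9 TPM without overlap, but Cyp4f13 and Cyp4f15 alone, at 56.6, 58.8 and 69.7 TPM and 53.3, 62.1 and 51.1 TPM, overlapped. The part of shared sequence in this common order was not tested. In TPM Cyp4a14, with 2.1% shared, had the same highest and lowest libraries, but its highest library changed with median-of-ratios scaling.

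**Figure D3:**
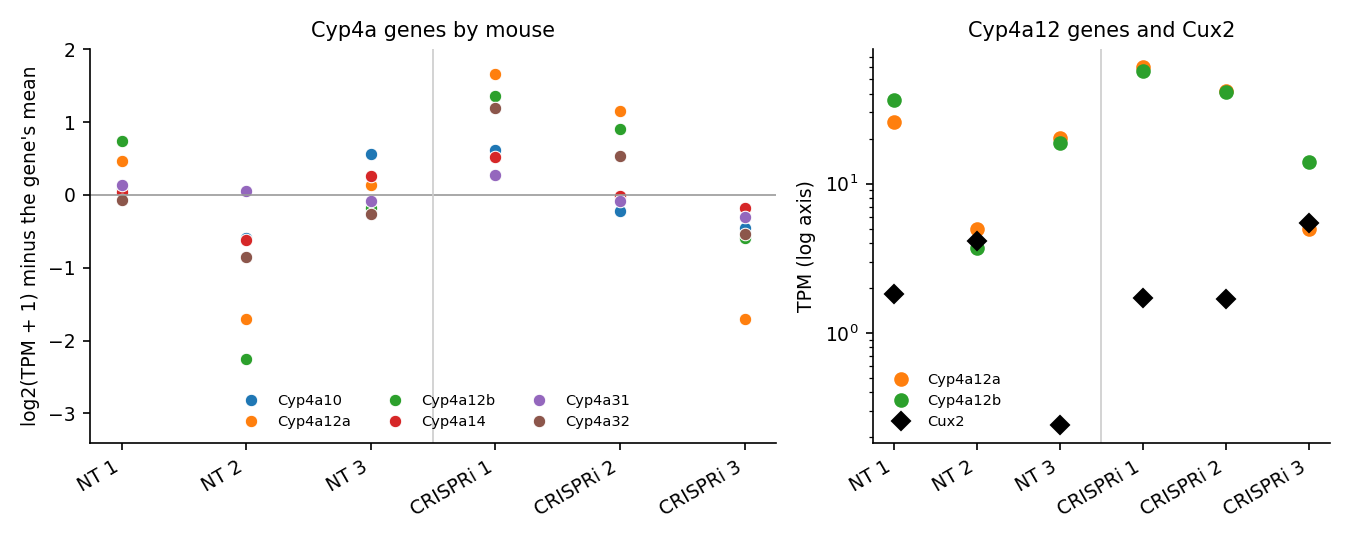
Left, log2(TPM + 1) of the 6 Cyp4a genes in each library (NT, non-targeting) minus the gene's mean over the 6 libraries; right, TPM (log axis) of Cyp4a12a, Cyp4a12b and Cux2. CRISPRi mouse 1 is highest for all 6 genes, and the 2 libraries with the lowest Cyp4a12a (4.94 and 4.96 TPM) have the highest Cux2 (4.10 and 5.44 TPM).

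Of the 10 log2 fold changes 4 were below 0, as were 26.0% of those of all genes tested, and the median of the 10 was 0.06 against 0.18 for all genes. That the median of all genes was above 0 depends on the scaling: with median-of-ratios scaling it was -0.0013 and 6 of the 10 members were below 0. The direction of the small differences in Cyp4f15 and Cyp4v3 changed with that scaling.

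**Figure D4:**
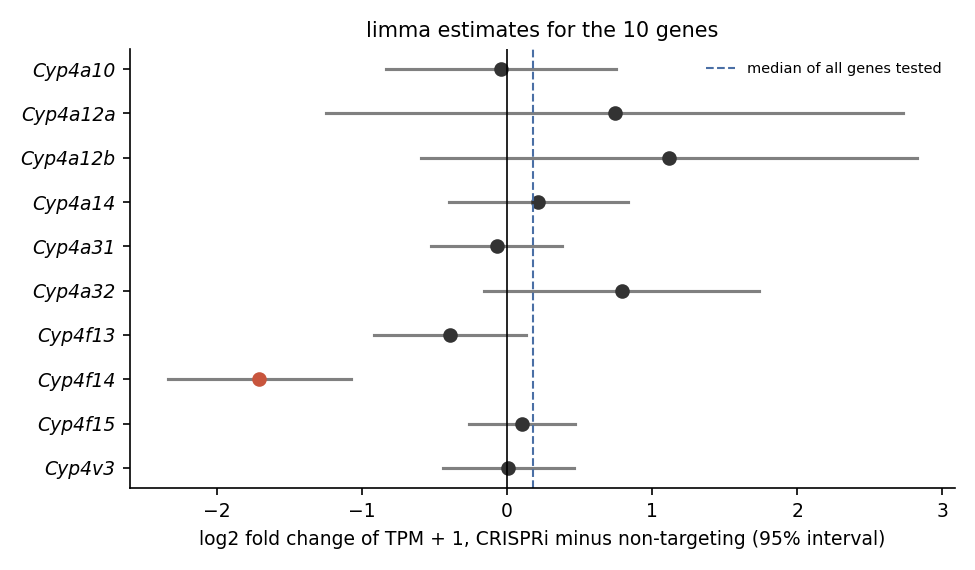
limma log2 fold change of TPM + 1 (CRISPRi minus non-targeting, points) with 95% intervals (lines) for the 10 genes; the dashed line is the median of all genes tested, 0.18. Only the interval of Cyp4f14, -2.34 to -1.08, leaves out 0.

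The other family 4 genes were scarce. Of 14, 5 were listed at 0 in every library and 3 had a mean TPM of at least 1. Cyp4f16 (7.31 ± 0.35 and 7.09 ± 0.58 TPM) and Cyp4f17 (2.01 ± 0.54 and 1.89 ± 0.27 TPM) overlapped between the groups. Cyp4f39, a hydroxylase of very long fatty acids known from skin, was at 1.21, 0.732 and 0.976 TPM and at 1.93, 1.56 and 1.81 TPM (log2 fold change 0.49, SE 0.17, limma adjusted p = 0.344). Its non-targeting mean, 0.972 TPM, was below the filter of 1, so it was tested only through its CRISPRi values (mean 1.76 TPM). Its groups did not overlap in the higher direction, as in 12.5% of all genes tested.

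None of the genes that work beside the hydroxylases passed the test with all 6 libraries. Without non-targeting mouse 1, when 25.3% of all genes passed, 3 of 12 genes for electron transfer and haem synthesis and 5 of 21 genes acting after the hydroxylase passed, all higher. Of the 12 genes for electron transfer to P450 enzymes and for haem synthesis, 10 had a log2 fold change above 0, as had 7846 of the 10598 tested. The median of the 12 was 0.18, equal to that of all genes. Alas1, the first enzyme of haem synthesis, was at 361, 94.9 and 162 TPM and at 489, 287 and 320 TPM (log2 fold change 1.00, limma adjusted p = 0.375), lowest in non-targeting mouse 2 as most Cyp4a genes were. Por, the reductase that feeds electrons to P450 enzymes, had a log2 fold change of 0.48, Cyb5r3 one of 0.36 and Alad one of 0.36. Of 21 genes acting after the hydroxylase or in peroxisomal oxidation of dicarboxylic acids, 14 were above 0 and 7 below, with a median of 0.18, and none passed. Ehhadh, the peroxisomal bifunctional enzyme, was at 301, 90.5 and 200 TPM and at 426, 332 and 316 TPM (1.01 on the log2 scale, limma adjusted p = 0.349), without overlap. Of the 21, 1 had no overlap in the lower and 3 in the higher direction, against 4.57% and 12.5% of all genes. Aldh3a2, the fatty aldehyde dehydrogenase of this route, had a log2 fold change of 0.81, Acot3 one of 0.61 and Acaa1a one of 0.32.

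PPARα, its partner Rxra, the coactivator Ppargc1a and the receptor's targets formed a list whose median was that of all genes. Of 31 tested, 24 were above 0 and 7 below with a median of 0.18, and none passed. Of all 10598 genes, 7846 were above 0. Without non-targeting mouse 1, 4 passed in the higher and 1 in the lower direction. In that setting 2436 of all 10558 genes passed in the higher and 237 in the lower direction. Of the 31, the 4 with the smallest p were Fabp1 (-1.83), Fgf21 (1.04), Ehhadh (1.01) and Acot2 (1.12). Fabp1, the liver fatty acid-binding protein, was at 4184, 7983 and 8869 TPM and at 2348, 2365 and 1187 TPM (limma adjusted p = 0.259), and Fgf21 at 6.11, 3.14 and 4.51 TPM and at 9.84, 14.1 and 7.72 TPM (adjusted p = 0.31). These 2 targets of the same receptor, picked by p, lay on opposite sides, each without overlap, while Cyp4a10 and Cyp4a14 lay near 0. Of the 31, 1 had no overlap in the lower and 3 in the higher direction, against 4.57% and 12.5% of all genes.

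Among the enzymes that act on the same lipids, arachidonate epoxygenases, epoxide hydrolases and leukotriene-handling enzymes, 6 of 15 tested were below 0 and 9 above, with a median of 0.27, and none passed. Without non-targeting mouse 1, 2 passed in each direction, where 2436 of all 10558 genes passed higher and 237 lower. Cyp2j5, an epoxygenase, was at 27.7, 65.6 and 45.1 TPM and at 9.58, 11.8 and 4.53 TPM (log2 fold change -2.29, limma adjusted p = 0.216). Cyp2c54, also an epoxygenase, was at 10.2, 24.2 and 20.7 TPM and at 3.63, 7.18 and 2.52 TPM (-1.84, adjusted p = 0.259). Both lay lower in CRISPRi mice without overlap and with the same highest library as Cyp4f14, non-targeting mouse 2. Ptgr1, a reductase that also acts on leukotriene B4, was at 63.8, 18.5 and 47.4 TPM and at 101, 111 and 96.3 TPM (1.39, adjusted p = 0.323), on the other side. Cyp2c55 had a log2 fold change of 0.87 and overlapping groups. Of the 15, 2 had no overlap in the lower and 2 in the higher direction, against 4.57% and 12.5% of all genes.

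The genes whose log2(TPM + 1) followed each member most closely over the 6 libraries were sought among the 5124 whose mean TPM reached 10, by the root-mean-square difference of the profiles after centring; this describes these libraries and is no test. For Cyp4f14, whose own spread was 0.92, the closest were Nat8f2 (0.218), C9 (0.223) and Ugt2b1 (0.224). C9, a complement component made by hepatocytes, was at 105, 334 and 182 TPM and at 57.6, 64.4 and 42.4 TPM. For Cyp4a12a, with a spread of 1.30, they were Igsf23 (0.349), Hspb1 (0.393) and Myh10 (0.450). For Cyp4a10 they were Retsat (0.170), H2-Ab1 (0.180) and Cyp4a14 (0.189), for Cyp4a14 Txnl4a (0.080), H2-T22 (0.121) and Tomm40l (0.122), and for Cyp4v3 Rbx1 (0.045), Cct3 (0.054) and Snrnp25 (0.059). Of these genes only Cyp4a10 had another member among its closest 3. The closest member ranked 8 for Cyp4a12a (Cyp4a12b), 57 for Cyp4a14 (Cyp4a10), 194 for Cyp4f14 (Cyp4f13) and 537 for Cyp4v3 (Cyp4f15).

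The label of the cells held against their markers: hepatocyte markers summed to 60461, 96691 and 62703 TPM in the non-targeting and 47582, 50906 and 61071 TPM in the CRISPRi libraries, led by Apoa2, Alb and Ttr. Of 11 tested, 10 had a log2 fold change below 0 (median -0.32), none passed, and their part in the lower Cyp4f14 was not tested. Markers of other cells were far lower. Of all 10598 genes tested, 7846 had a log2 fold change above 0 and 2752 below, a share that depends on the scaling. Log2 fold changes above 0 were found in 9 of 9 for Kupffer cells and macrophages (sums of 78.7 to 149 and 119 to 173 TPM, led by C1qa and Cd5l), 6 of 6 for stellate cells and fibroblasts (13.4 to 28.0 and 33.9 to 46.9 TPM, led by Dcn, the 1 of these lists whose sums did not overlap), 4 of 5 for endothelium (18.4 to 24.4 and 19.4 to 29.0 TPM) and 2 of 4 for cholangiocytes (13.8 to 32.4 and 23.2 to 38.5 TPM). Red cell markers, at 939 to 3880 and 490 to 1567 TPM, were below 0 in 5 of 5 tested (median -0.73), and neutrophil markers, at 8.69 to 57.8 and 2.49 to 19.2 TPM, in 2 of 2 (median -0.84). Both sums were highest in non-targeting mouse 2, and lymphocyte markers stayed at 1.15 to 2.06 TPM. No marker of these lists found in the table was listed at 0 in every library. Fah (63.9 ± 9.74 and 62.5 ± 14.9 TPM) and Rpl10a (1047 ± 58.5 and 964 ± 98.8 TPM), the genes carried by the plasmid, overlapped between the groups.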

How the data were processed

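RNA bound to GFP-tagged ribosomes was pulled down from 6 livers and its poly(A) fraction sequenced, 3 per group, per the labels' protocols; group and mouse number came from the sample titles. The authors deposited TPM for 117486 transcripts of all samples in a table. They used kallisto and the build mm39, per the submitters' processing notes; the sources used here give neither its version nor the transcript set. Columns sum to 999999.8 to 1000000.2, so TPM keep no depth: read numbers are unknown and no counting interval is given. Between 17813 and 18680 symbols were above 0 in a library.

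Transcripts were summed by symbol, leaving out 168 without one (116.0 to 142.6 TPM per library). Of 21941 symbols above 0 in any library, 10598 reached a mean TPM of 1. Their log2(TPM + 1) values entered limma 3.58.1 under R 4.3.3 (trended empirical Bayes, two-sided, Benjamini-Hochberg adjusted p below 0.05, no covariate), after the fit had been tested on simulated data. This scale understates changes of low genes; "-fold" is a ratio of mean TPM. Neurl1b was below the filter and is given by its values. The p-values measure the spread between these mice. For single values an exact two-sided permutation test was used.

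Named are all members, Neurl1b, Fah, Rpl10a, the other family 4 genes that passed the filter, up to 4 genes of each pathway list with the smallest p, up to 3 markers with the highest mean TPM of each cell type, and the 3 genes most like each of 5 members (predicted genes left out). Cux2, Ddx3y, Eif2s3y and the transcript classes fall outside this rule and were chosen after their values were seen. The members and lists were chosen with earlier results of these data known. Acsvl1, Cyp2c44 and Tf of the lists were not matched by symbol. Sequences came from GENCODE vM21 transcripts (GRCm38), in which all 37 member transcripts of the table were found by identifier but with other versions, and from RefSeq promoter windows (GRCm38.p6), both of another build than the table.

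The fit was repeated with other pseudocounts (0.1 and 5), without a filter and with a minimum mean TPM of 5, with median-of-ratios and quantile scaling, with a constant and a robust prior, with array weights, with mouse number as a block, without each mouse, and with the most abundant transcript alone and sums of near-identical genes. Median-of-ratios scaling without non-targeting mouse 1 was added after seeing the data.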

Additional observations from a re-analysis of the deposited data

How the results depend on the processing

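Mice with the same number did not deviate together (correlations of 0.061, -0.096 and -0.277), so the numbers do not pair them; with the replicate block 2 genes and 0 members passed, and Cyp4f14 had an adjusted p of 0.0608 (limma). Genes past the threshold, 2 as reported, were 0 with a pseudocount of 5, with no filter and with quantile normalization, 1 with a mean TPM of at least 5, 2210 with array weights and 0 to 2673 with one mouse left out; leaving out non-targeting mouse 1 gave the 2673, and 473 when median-of-ratios scaling was added (184 higher, 289 lower). Cyp4f14 was below 0 under all 18 alternatives, and was the 1 member that passed in 3 of them: array weights (-1.67, adjusted p = 0.0232), without non-targeting mouse 1 (-1.94, 0.0173), and that with median-of-ratios scaling (-2.27, 0.0294). With one mouse left out 0 to 1 members passed, 2 to 6 members were below 0, and Cyp4f14 ranged from -1.94 to -1.47. In the combined setting 7 members were below 0.

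Cyp4a12a, Cyp4a12b and Cyp4f13 kept their direction under the alternatives run, but with one mouse left out Cyp4a12a ranged from 0.074 (without non-targeting mouse 2) to 1.78 (without CRISPRi mouse 3), Cyp4a12b from 0.27 to 1.77 and Cyp4f13 from -0.56 to -0.25. The values of 5 other members near 0 turned, and the sum that holds Cyp4a32 lay on the other side of 0 than Cyp4a32 itself. With median-of-ratios scaling Cyp4f15 was at -0.10 and Cyp4v3 at -0.20, and with quantile normalization at -0.066 and -0.13. In the combined setting Cyp4a14 was at -0.061, Cyp4f15 at -0.17 and Cyp4v3 at -0.28. The most abundant transcript alone gave 0.50 for Cyp4a10 and 0.00093 for Cyp4a31, and the sum of Cyp4a10, Cyp4a31 and Cyp4a32, mostly Cyp4a10, gave -0.012 (Cyp4a32 alone 0.79). With one mouse left out Cyp4a10 ranged from -0.36 to 0.23 (0.23 without non-targeting mouse 3, 0.058 and 0.18 without CRISPRi mice 2 and 3), Cyp4a14 from -0.042 to 0.40 (lowest without non-targeting mouse 2), Cyp4a31 from -0.23 to 0.064 (highest without CRISPRi mouse 3), and Cyp4v3 from -0.14 to 0.14 (-0.14 without non-targeting mouse 2, -0.026 and -0.089 without CRISPRi mice 1 and 2). The cause of these turns was not tested.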
